A study of Mus musculus with 8 samples.

Results

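The genes of rod phototransduction were followed in retinas of aged mice labelled homozygous Mrp4 knockout, written here as Mrp4-null, and in wild-type retinas. The 9 genes were chosen by name for their part in the light response of rods, and every array probe whose accession matches one of them was kept apart. They were covered by 10 probes among the 56605 on the array, which stand for 22911 named genes. Gnat1, Gngt1, Pde6a, Pde6b, Cnga1, Sag, Rcvrn and Slc24a1 had 1 probe each, and Pde6g had 2. In GRCm38.p6 the genes lie on chromosomes 1 (Sag), 5 (Pde6b and Cnga1), 6 (Gngt1), 9 (Gnat1 and Slc24a1), 11 (Pde6g and Rcvrn) and 18 (Pde6a). The samples were 4 of each genotype, retina from mice aged 46 to 55 weeks by the labels, each on 1 one-color Cy3 array of a single slide. The methods give the knockout line a C57BL/6J background. The methods name tissue of 3 mice and 4 samples of each genotype without saying how mice and samples correspond, so the samples may not be separate animals and the p-values measure only the spread between these samples.

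Rods detect dim light. Light activates a receptor of the outer segment, which loads the G protein transducin with GTP, and transducin releases the inhibitory subunits from the phosphodiesterase PDE6. PDE6 then hydrolyses cGMP, the cation channels that cGMP holds open close, and the cell hyperpolarizes. The response ends when a kinase and arrestin shut off the receptor and when calcium, which the exchanger of the outer segment keeps pumping out, falls and lets activating proteins stimulate the guanylate cyclases. These genes are among the most abundantly transcribed in the retina, and inherited loss of several of them causes rod degeneration or stationary night blindness.

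The targeted gene went against the labels. Abcc4, which encodes MRP4, had a normalized log2 signal of 10.75 ± 0.09 (SD, n = 4 arrays) under the Mrp4-null label and 6.83 ± 0.29 (SD, n = 4) in wild-type, a difference of 3.92 on the log2 scale (limma, adjusted p = 1.36e-05). Whether this probe lies outside the deleted part of the gene, or whether the labels are exchanged, was not tested. Every direction below therefore follows the labels as deposited, and would turn if they are exchanged. On single arrays 37343 to 39581 probes were well above background, 78 to 143 spots were marked as outliers and 0 probes were saturated. Each genotype filled a row of the slide, so row and genotype cannot be told apart. The Xist probe was well above background on 4 of 4 arrays labelled Mrp4-null and on 2 of 4 in wild-type, whereas at least 1 of 7 probes of Y-linked genes was so on 0 and 3 arrays. Markers of the neural retina were present, with 9 of 9 of these rod genes, 7 of 7 rod regulators and structural genes, 11 of 11 cone genes, 9 of 9 bipolar genes and 8 of 8 Muller glia genes well above background on all 8 arrays. Outside the neural retina, 7 of 8 pigment epithelium genes and 4 of 4 blood genes with a probe were well above background on all 8 arrays. Lens RNA was also present. Of 18 lens genes, 14 were well above background on all 8 arrays and 2 on none, and the summed normalized signal of the 15 retained lens genes ranged from 3454 to 25642 under the Mrp4-null label and from 9408 to 56056 in wild-type. The part of RNA from lens, pigment epithelium or blood, or of the sexes of the animals, in the values of the rod genes was not tested. In whole retina, fewer rods and less RNA per rod cannot be told apart.

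Promoter windows from RefSeq were available here for 5 of the 9 genes, Cnga1, Gngt1, Pde6b, Sag and Slc24a1. The 250 bases before the annotated start are shown for 3 of them, Sag because its fitted genotype difference was the largest, Slc24a1 because its arrays were the most spread, and Gngt1 for comparison. Capitals mark TAATCC or its reverse complement GGATTA, the letters that the photoreceptor homeobox factor CRX is known to prefer. Coordinates are of GRCm38.p6, and each sequence is written 5′ to 3′ on the strand of the gene.
Sag (chr1:87803430-87803679, plus strand): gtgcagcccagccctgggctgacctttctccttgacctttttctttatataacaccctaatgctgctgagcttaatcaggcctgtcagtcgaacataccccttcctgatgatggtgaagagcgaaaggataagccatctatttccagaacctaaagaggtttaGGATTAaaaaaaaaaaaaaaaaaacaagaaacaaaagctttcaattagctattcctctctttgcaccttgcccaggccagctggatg
Gngt1 (chr6:3993758-3994007, plus strand): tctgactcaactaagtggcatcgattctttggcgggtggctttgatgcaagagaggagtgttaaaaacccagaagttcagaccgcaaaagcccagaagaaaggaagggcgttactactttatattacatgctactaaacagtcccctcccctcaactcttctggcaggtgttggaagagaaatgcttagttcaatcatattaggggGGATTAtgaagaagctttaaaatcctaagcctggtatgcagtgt
Slc24a1 (chr9:64951621-64951870, minus strand): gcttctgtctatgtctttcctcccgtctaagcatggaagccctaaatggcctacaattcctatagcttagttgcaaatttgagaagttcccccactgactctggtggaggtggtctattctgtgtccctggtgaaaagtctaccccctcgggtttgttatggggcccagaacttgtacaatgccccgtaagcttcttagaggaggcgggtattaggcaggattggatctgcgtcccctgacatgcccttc
The letters lay 87 bases before the start of Sag and 44 bases before that of Gngt1, as GGATTA in both. Cnga1 held them as TAATCC, 228 bases before its start. The windows of Pde6b and Slc24a1 did not hold these letters on either strand. Over all 32851 windows of the same length in the table, 6.25% held them. In the windows of 12 other rod pathway genes, 7 genes held them. A match describes the sequence and does not show binding.

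Transducin, the G protein of the rod light response, was measured through Gnat1, its rod alpha subunit, and Gngt1, its rod gamma subunit. The processed signal of Gnat1 (probe A_52_P211185) was 189470, 151350, 170311 and 179503 under the Mrp4-null label, against 176473, 182025, 150496 and 140539 in wild-type. After quantile normalization the log2 signals were 17.41, 17.28, 17.28 and 17.44 under the Mrp4-null label and 17.38, 17.41, 17.28 and 17.32 in wild-type. The genotypes overlapped almost completely, and 3 arrays shared 1 value because the probe held the same rank, 29 from the brightest, on each of them. The log2 fold change was 0.0064 with a standard error (SE) of 0.078 (limma, adjusted p = 1.00) and a 95% interval of -0.17 to 0.18. Gngt1 (probe A_51_P383774) was at 16.44, 16.56, 16.27 and 16.37 under the Mrp4-null label and at 16.28, 16.37, 16.44 and 16.45 in wild-type. Both the highest and the lowest array of Gngt1 were labelled Mrp4-null. Its log2 fold change was 0.024 (SE 0.087, 95% interval -0.17 to 0.22, adjusted p = 1.00 by limma). For both genes the sign of the difference turned under some other settings and with the array left out, so no direction is given.

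**Figure D1:**
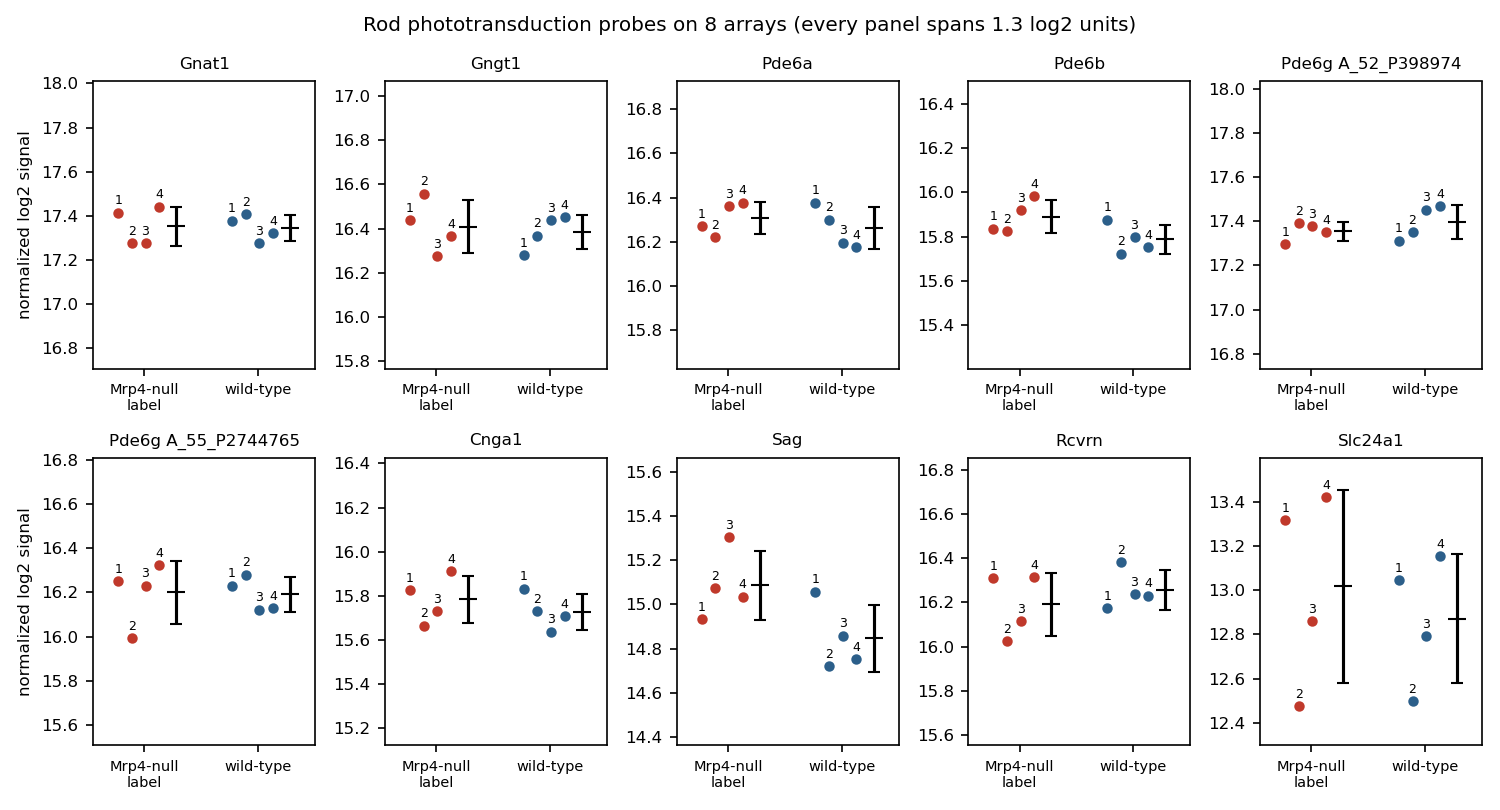
Normalized log2 signal (vertical axis) of the 10 rod phototransduction probes on 4 arrays labelled Mrp4-null (red) and 4 wild-type arrays (blue), numbered by replicate, with the mean and SD of each group in black. Every panel spans the same number of log2 units, and the genotypes overlap in all 10 panels, with the widest scatter for Slc24a1.

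PDE6, the effector that hydrolyses cGMP in rods, has the catalytic subunits encoded by Pde6a and Pde6b and the inhibitory gamma subunit encoded by Pde6g. Pde6a (probe A_55_P2062449) was at 16.27, 16.22, 16.36 and 16.38 under the Mrp4-null label and at 16.38, 16.30, 16.20 and 16.18 in wild-type. Its log2 fold change was 0.045 (SE 0.081, 95% interval -0.14 to 0.23, adjusted p = 1.00 by limma). Leaving out the fourth wild-type array gave 0.016, and leaving out the first gave 0.080. Pde6b, the gene mutated in the rd1 and rd10 mouse models of retinal degeneration, was at 15.84, 15.82, 15.92 and 15.98 under the Mrp4-null label and at 15.88, 15.72, 15.80 and 15.75 in wild-type (probe A_55_P2745723). The first wild-type array lay within the range of the arrays labelled Mrp4-null, and the first and second of those lay within the wild-type range. The log2 fold change of Pde6b was 0.10 (SE 0.076, 95% interval -0.070 to 0.28, adjusted p = 1.00 by limma; exact two-sided permutation p = 0.114).

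The 2 probes of Pde6g gave fold changes close to 0 but did not vary together. Probe A_52_P398974 was at 17.30, 17.39, 17.38 and 17.35 under the Mrp4-null label and at 17.31, 17.35, 17.45 and 17.47 in wild-type, a log2 fold change of -0.042 (SE 0.073, 95% interval -0.21 to 0.13). Probe A_55_P2744765 was at 16.25, 15.99, 16.23 and 16.32 under the Mrp4-null label and at 16.23, 16.28, 16.12 and 16.13 in wild-type, a log2 fold change of 0.0094 (SE 0.093, 95% interval -0.20 to 0.22). Neither was called changed (adjusted p = 1.00 for each from limma). The second array labelled Mrp4-null was the lowest of all 8 for the latter probe and the third highest for the former. After the genotype means were taken off, the Pearson correlation of the probes over the 8 arrays was -0.615, although both are assigned to the same transcript. The sign of the small genotype difference turned with the scaling for both probes, and with the array left out for the latter. The former was at -0.070 when the first wild-type array was left out and at -0.019 when the fourth was.

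Of the genes that carry the current, Cnga1 encodes the alpha subunit of the rod cGMP-gated channel and Slc24a1 the sodium, calcium and potassium exchanger NCKX1, which extrudes calcium from the rod outer segment. Cnga1 (probe A_55_P2019547) was at 15.83, 15.67, 15.73 and 15.91 under the Mrp4-null label and at 15.83, 15.73, 15.64 and 15.71 in wild-type. Its log2 fold change was 0.056 (SE 0.085, 95% interval -0.14 to 0.25, adjusted p = 1.00 by limma). It was 0.014 without the fourth array under the Mrp4-null label and 0.094 without the second. Slc24a1 was the most variable of the 9 genes. Its processed signal (probe A_52_P404273) was 11934, 4327, 7891 and 12214 under the Mrp4-null label, against 8937, 7073, 5743 and 8234 in wild-type, a range of 2.82-fold over the 8 arrays. The normalized log2 signals were 13.32, 12.48, 12.86 and 13.42 under the Mrp4-null label and 13.05, 12.50, 12.79 and 13.16 in wild-type. The second array of each genotype was low and the fourth was high, so most of the spread lay within the genotypes. The log2 fold change was 0.15 (SE 0.23, limma, adjusted p = 1.00), and its 95% interval of -0.37 to 0.67 was the only one of the 10 to reach beyond 1.5-fold. Leaving out the low second array under the Mrp4-null label gave 0.32, leaving out the fourth array of that label gave 0.012, and the probe was called in neither fit. Without the first array of the label it was 0.048, and without the second wild-type array 0.021.

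Sag and Rcvrn act in the recovery from light. Sag encodes rod arrestin, which binds the phosphorylated active light receptor, and Rcvrn encodes recoverin, the calcium sensor that restrains the receptor kinase. The processed signal of Sag (probe A_66_P118146) was 35826, 28594, 41816 and 36736 under the Mrp4-null label, against 34429, 32072, 25332 and 25022 in wild-type. The normalized log2 signals were 14.93, 15.07, 15.31 and 15.03 under the Mrp4-null label and 15.06, 14.72, 14.86 and 14.75 in wild-type. Every array labelled Mrp4-null lay above 3 of the 4 wild-type arrays, and the first wild-type array lay within their range. The mean was 15.09 ± 0.16 (SD, n = 4) under the Mrp4-null label against 14.85 ± 0.15 (SD, n = 4), so the log2 fold change was 0.24 (SE 0.11, 95% interval -0.014 to 0.49), or 1.18-fold. Sag was not called changed (unadjusted p = 0.0611 and adjusted p = 0.816 from limma; exact two-sided permutation p = 0.0857, where 4 arrays against 4 allow no p below 0.0286). Its log2 fold change was 0.17 to 0.31 with 1 array left out, and lowest without the third array labelled Mrp4-null. Rcvrn (probe A_66_P102910) was at 16.31, 16.03, 16.11 and 16.31 under the Mrp4-null label and at 16.18, 16.38, 16.24 and 16.23 in wild-type. Of the wild-type arrays, 3 of 4 lay inside the wider range of the arrays labelled Mrp4-null. The log2 fold change of Rcvrn was -0.065 (SE 0.095, 95% interval -0.28 to 0.15, adjusted p = 1.00 by limma). It ranged from -0.10, without the first array under the Mrp4-null label, to -0.011, without the second.

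**Figure D2:**
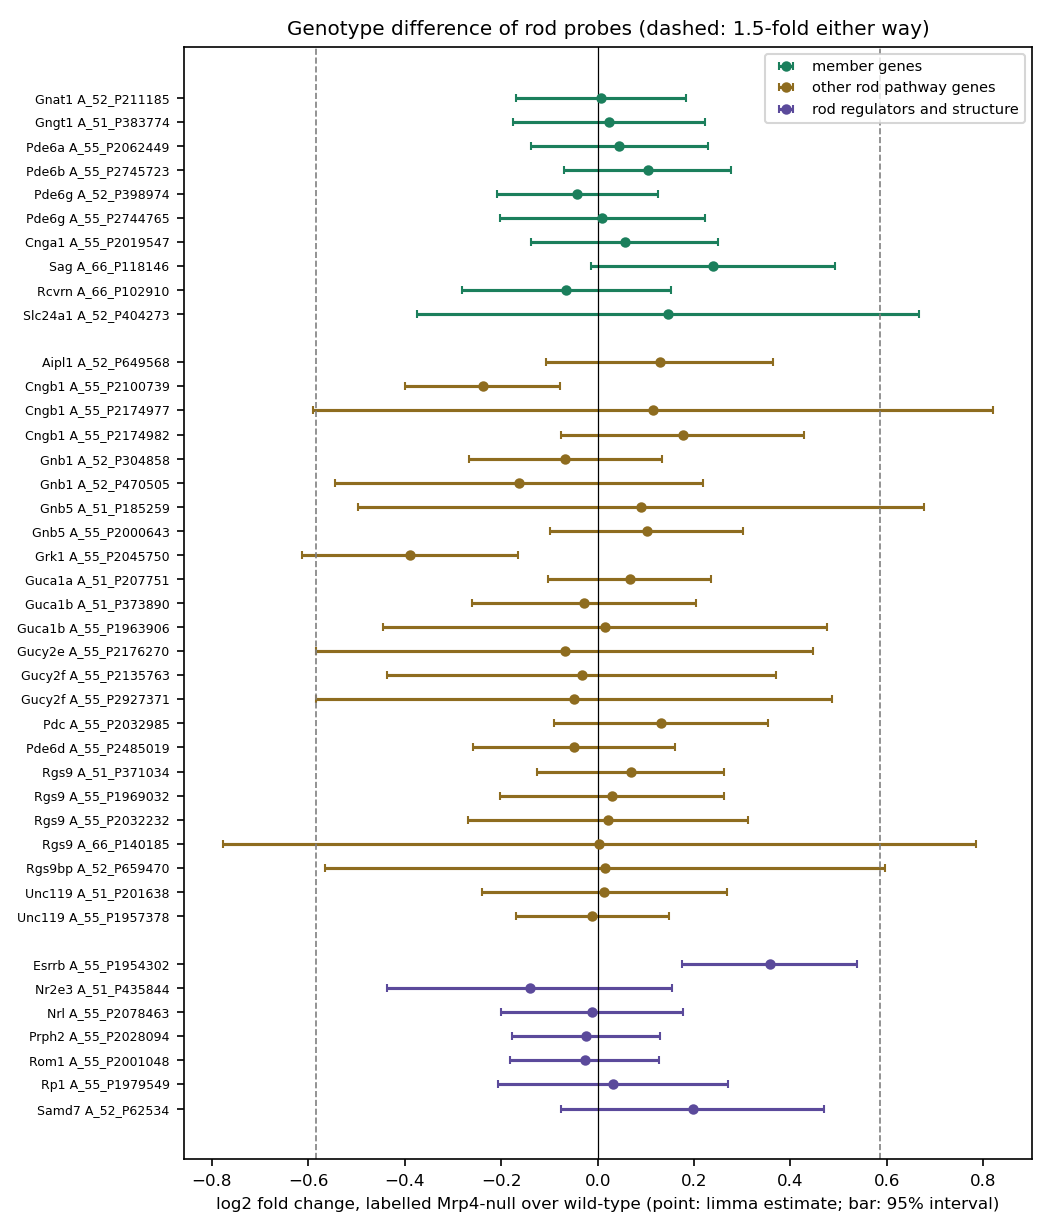
Log2 fold change of the arrays labelled Mrp4-null over wild-type (horizontal axis) for the probes of the 9 genes, of the other rod pathway genes and of rod regulators and structural genes, with points for the limma estimate and bars for the 95% interval. All points lie between the dashed lines at 1.5-fold, and of the 10 probes of the 9 genes Slc24a1 alone has an interval that crosses a line.

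Over the 9 genes, limma called 0 of 10 probes changed (1.5-fold or more, adjusted p under 0.05), where it called 0.545% of all 37085 retained probes. None of the 10 had an unadjusted p under 0.05 (6.46% of all retained probes), and the local pooled error test called none (0.647% of all). The arrays of the genotypes did not separate for any of the 10 probes, against 4.79% of all retained probes. The median log2 fold change was 0.035 over the 10 probes and -0.0093 over all retained probes. Above 0 were 8 of the 10 probes, beside 17339 of all 37085 retained probes. Of these 8, Gnat1, Gngt1 and Pde6g probe A_55_P2744765 fell below 0 under other settings. For 9 of the 10 probes the 95% interval lay inside 1.5-fold either way, as it did for 77.2% of all retained probes. Among these 9 the widest bounds after quantile normalization were 1.41-fold higher, for Sag, and 0.823 times the wild-type level, for Rcvrn. The interval of Slc24a1 reached from 0.772 times the wild-type level to 1.59-fold higher. By the local pooled error test, and with the replicate number as a block, all 10 intervals lay inside 1.5-fold. The same held without the fourth array labelled Mrp4-null and without the second wild-type array, while every other setting gave 9.

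**Figure D3:**
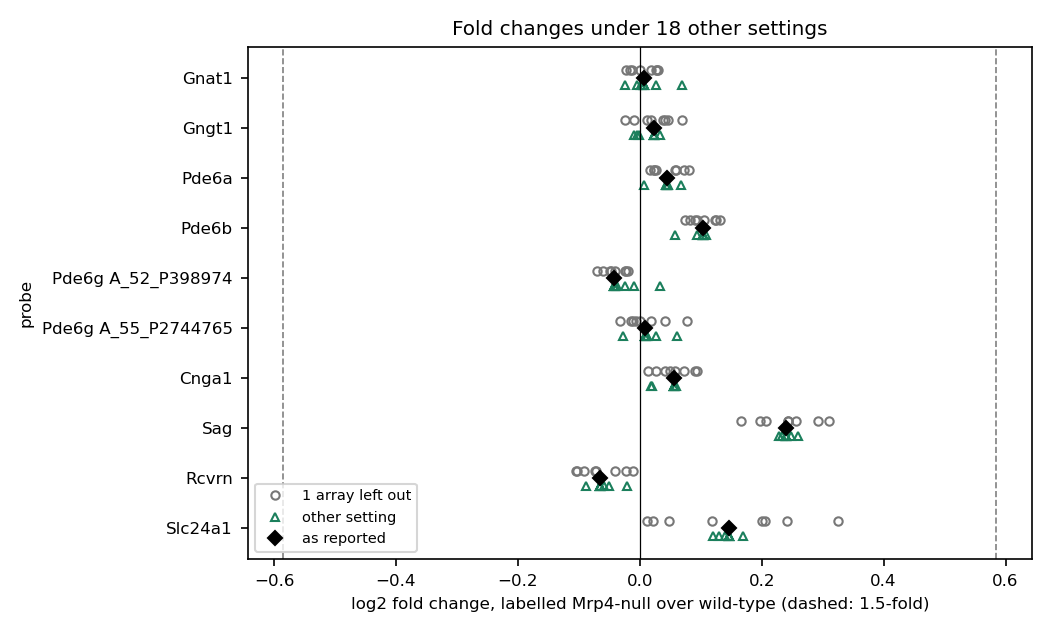
Log2 fold change of the arrays labelled Mrp4-null over wild-type (horizontal axis) for each of the 10 probes, as reported (diamond), with 1 array left out (circles) and under the other settings (triangles). All values lie inside 1.5-fold, and those of Slc24a1 spread the most, from 0.012 to 0.32.

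The 10 probes were bright, with a mean brightness above that of at least 92.5% of the retained probes, and brightness depends on the probe as well as on the transcript. The SD within genotypes had a median of 0.0982 log2 units over the 10 probes and 0.188 over all retained probes. This median was 0.0892 over 7 probes of rod regulators and structural genes and 0.145 over 24 of the other rod pathway genes. Among the 10 probes the SD was lowest for Pde6g probe A_52_P398974, at 0.062, and highest for Slc24a1, at 0.37. The order depended on the scaling. After a shift of each array to its 75th percentile, that Pde6g probe had an SD of 0.25, Gngt1 of 0.22 (0.10 before) and Gnat1 of 0.16 (0.075 before). The other Pde6g probe then had the lowest SD, 0.051, and Slc24a1 still had the highest, 0.37. The median SD under this scaling was 0.128 over the 10 probes and 0.195 over all retained probes.

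Before normalization the arrays differed in overall signal, with a 75th percentile between 497 and 786 (a range of 1.58-fold). Of the 10 probes, 6 had a narrower range than that. Pde6g probe A_52_P398974 ranged over only 1.16-fold, Gngt1 over 1.25-fold and Gnat1 over 1.35-fold, while Rcvrn ranged over 1.71-fold and Sag over 1.67-fold. The normalized values were also set against this difference. The arrays were parted, after the values had been seen, into 3 with a 75th percentile of 497 to 566 (1 labelled Mrp4-null and 2 wild-type) and 5 with 700 to 786. Pde6g probe A_55_P2744765 was at 15.99 to 16.13 on the former and at 16.23 to 16.32 on the latter. The other Pde6g probe ran the opposite way, with 17.39 to 17.47 on the former and 17.30 to 17.38 on the latter. Pde6a and Cnga1 were lower on the 3 arrays without overlap, while the other 6 probes overlapped. The 4 of 10 probes without overlap stood beside 12.3% of all retained probes measured on every array, as a description of a division that was chosen on these arrays.

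**Figure D4:**
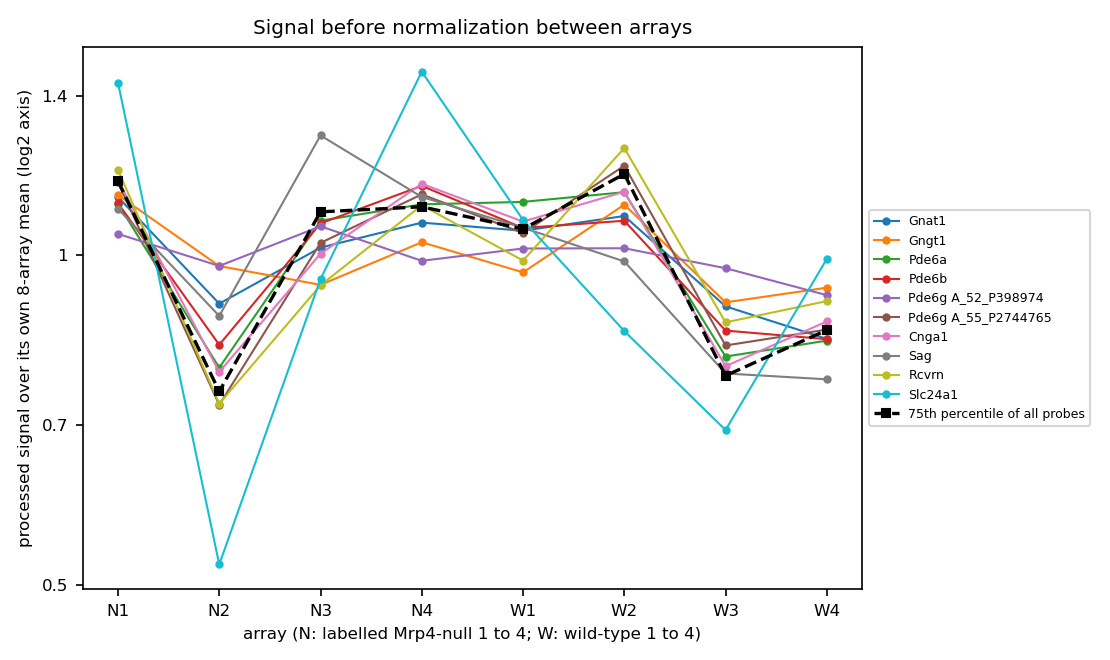
Processed signal of each of the 10 probes over its own mean of 8 arrays (vertical axis, logarithmic) on the arrays labelled Mrp4-null (N1 to N4) and wild-type (W1 to W4), with the 75th percentile of all probes as a dashed line. Most probes follow the dashed line, Pde6g probe A_52_P398974 stays flat with a range of 1.16-fold, and Slc24a1 swings the most, with a range of 2.82-fold.

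The 9 genes did not vary as 1 block among arrays. With the genotype means taken off, the 45 pairs of probes had Pearson correlations over the 8 arrays between -0.896 and 0.876, with a median of 0.21 and 23 pairs above 0. The highest was that of Gnat1 with Cnga1, followed by Gnat1 with Rcvrn at 0.816. The lowest was that of Gngt1 with Pde6a. All probes of an array share its labelling and its normalization, so these correlations are a description. A mean profile of the 9 genes was compared with the brightest retained probe of 16081 other named genes over the 8 arrays. The profile averaged log2 values, each probe centred on its own mean but not scaled, and the genotype means were not taken off. Slc24a1, which had the widest spread, therefore weighed most in it. The genes most like this profile were 9930014A18Rik (Pearson's r = 0.964), Lin28b (0.952), Zfp57 (0.947) and Fam3c (0.940). Those that ran most against it were Krt2 (r = -0.947), Sh2b2 (-0.943), Abhd2 (-0.935), Yipf1 (-0.930) and Olfr455 (-0.929). With 8 arrays the middle 95% of the genes compared spanned -0.736 to 0.725, so high values are common at this number of arrays.

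A list of 14 other genes of the rod pathway, which include the transducin beta subunit Gnb1, the channel beta subunit Cngb1, the receptor kinase Grk1, the guanylate cyclases and their activators, and the complex that ends transducin activity, had 24 retained probes. Limma called 0 of the 24 changed (0.545% of all retained probes), and 2 had an unadjusted p under 0.05 (6.46% of all). The local pooled error test called 0 as well. Their median log2 fold change was 0.015, and 14 of the 24 were above 0 (17339 of all 37085 retained probes). For 2 of the 24 probes the genotypes separated without overlap (4.79% of all retained probes), and both were lower under the Mrp4-null label.

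Grk1 was at 14.96, 15.01, 15.10 and 15.03 under the Mrp4-null label and at 15.63, 15.31, 15.47 and 15.25 in wild-type, a log2 fold change of -0.39 (SE 0.099, limma, unadjusted p = 0.00363 and adjusted p = 0.243). Cngb1 had a probe, A_55_P2100739, at 16.21 to 16.24 under the Mrp4-null label and at 16.39 to 16.56 in wild-type, a log2 fold change of -0.24 (SE 0.071, limma, adjusted p = 0.389). Another probe of Cngb1, A_55_P2174982, had a log2 fold change of 0.18 (SE 0.11), and the third, A_55_P2174977, had one of 0.11 (SE 0.31), so 2 of the 3 probes of this gene were above 0. Grk1 and Cngb1 both lie on chromosome 8. Among 21 probes of 11 cone genes limma also called 0 (0.545% of all retained probes), with a median log2 fold change of -0.050 and a range of -0.27 to 0.34. Of the 21, 2 had an unadjusted p under 0.05 (6.46% of all) and 2 separated the genotypes (4.79% of all). Whether rod and cone genes differ in this was not tested.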

How the data were processed

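The authors labelled total retinal RNA with Cy3, hybridized it to Agilent SurePrint G3 mouse 8x60K v2 arrays and read the arrays with Agilent Feature Extraction 11.0.1.1, per the file headers and the submitters' processing notes. The deposited signal intensity was background-subtracted and detrended within the array and was not normalized between arrays. The deposited table of values held the mean processed intensity per probe, within a relative difference of 1.46e-07. Flags of 0 or 1 per spot were deposited as well.

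Control and outlier spots were left out, and the log2 intensity was averaged per probe. A genotype kept a probe if all its measured arrays, 3 or more, had it well above background and 2 or more arrays of the other genotype measured it. The 37085 probes so retained were quantile-normalized as in the paper's methods. Genotypes were compared with lmFit and eBayes (R 4.3.3, limma 3.58.1), with Benjamini-Hochberg adjustment across the retained set. Calls needed a change of 1.5-fold or more and an adjusted p under 0.05. The scripts were tested on simulated data. Probes were named through accessions of GRCm38.p6 (32994 probes, 58.3%). The array design carries mm9, so no probe coordinates are given.

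Other settings tried were cyclic loess, centring each array on its 75th percentile, normexp with an offset of 50 on the median signals (mean signals are not used here), the deposited table, other filters, outlier spots kept, an intensity trend with robust variances, a local pooled error test as the methods name it (written for this work), the replicate number as a block, and each array left out. The genes and lists were chosen with earlier results of these data known. The named genes were all 9 genes, Abcc4, the up to 3 other pathway probes called changed or with the lowest unadjusted p, and the 5 genes most and least like the mean profile. A gene of the pathway list and 1 of the most similar genes are not reported here. The number of arrays limits the precision.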

Additional observations from a re-analysis of the deposited data

How the results depend on the processing

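None of the 10 probes of the 9 rod phototransduction genes was called changed by limma or by the local pooled error test in any of the 18 other settings, and none of the 24 probes of the other rod pathway genes was. The smallest adjusted p among the 10 was 0.537 to 1.00 over these settings. In 5 of them 1 probe, that of Sag, had an unadjusted p under 0.05, with the lowest, 0.0217, without the first wild-type array. The median log2 fold change of the 10 probes was 0.013 to 0.076 with 1 array left out. Differences close to 0 changed sign without being called. Gnat1 was at -0.024 with normexp and at -0.0048 by the local pooled error test. Gngt1 was at -0.0046 after a shift to the 75th percentile, at -0.0097 with normexp and at -0.0014 by the local pooled error test. Pde6g was at 0.033 with cyclic loess by probe A_52_P398974 and at -0.027 after the shift by probe A_55_P2744765. With 1 array left out Gnat1 was at -0.023 to 0.029, Gngt1 at -0.024 to 0.070 and Pde6g probe A_55_P2744765 at -0.032 to 0.078. The cause was not tested. Over all retained probes limma called 202 changed, 2395 passed an unadjusted p under 0.05 with no fold threshold, and 117 to 188 were called with 1 array left out, lowest without the fourth wild-type array. Without the second and the third wild-type array the counts were 131 and 129. The samples share replicate numbers, and with the replicate number as a block 71 were called, while the 10 rod probes had 0 calls either way. Deviations of same-numbered arrays from their genotype means had correlations of -0.29, -0.685, 0.0344 and 0.409. Of the arrays labelled Mrp4-null, 0 of 4 correlated best with their own number. With so few arrays this check cannot tell whether same-numbered samples were handled together. Dim probes are limited by signal over background, which does not apply to these 10 bright probes. Before normalization Pde6g probe A_52_P398974 ranged over 1.16-fold and the dimmer Pde6g probe A_55_P2744765 over 1.65-fold. A limit at the bright end, short of the mark for saturation, was not tested.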

Other observations

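Rod regulators and structural genes outside the transduction pathway were read in the same fit. The list held Nrl and Nr2e3, transcription factors that set rod identity, Samd7 and Esrrb, which act in rod gene regulation and survival, and the outer segment genes Prph2, Rom1 and Rp1. Limma called 0 of the 7 retained probes changed, with a median log2 fold change of -0.012 (0.545% of all retained probes were called). Of the 7, 1 had an unadjusted p under 0.05 (6.46% of all) and 1 separated the genotypes (4.79% of all). Both counts were the probe of Esrrb, which is named here because of its values. It was at 15.16 ± 0.036 (SD, n = 4) under the Mrp4-null label and at 14.80 ± 0.11 (SD, n = 4) in wild-type, a log2 fold change of 0.36 (SE 0.079, limma, adjusted p = 0.155). On the log2 scale Samd7 differed by 0.20 (SE 0.12), Rp1 by 0.032 (SE 0.10), Nrl by -0.012 (SE 0.083), Prph2 by -0.024 (SE 0.068), Rom1 by -0.027 (SE 0.068) and Nr2e3 by -0.14 (SE 0.13). The 95% interval of each of these 6 included 0.

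Limma called 0 of 18 probes of bipolar genes changed (0.545% of all retained probes), with a median log2 fold change of 0.17. Above 0 were 16 of them, beside 17339 of all 37085 retained probes. Of these 18, 4 had an unadjusted p under 0.05 (6.46% of all) and 3 separated the genotypes (4.79% of all). Limma called 0 of 12 probes of ganglion cell genes, with a median of -0.17. Below 0 were 11 of these 12, beside 19746 of all 37085 retained probes. Of the 12, 2 had an unadjusted p under 0.05 by limma and 2 separated the genotypes. All 20 retained lens probes were below 0, with a median of -1.42, and limma called 0 of them while the local pooled error test called 17 (0.647% of all retained probes). Of the 20, 8 had an unadjusted p under 0.05 by limma and 2 separated the genotypes. These lists were not tested against the rod genes.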
